A study of Mus musculus with 3 samples.

Results

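The genes of transforming growth factor beta (TGF-beta) signalling that are known to maintain microglia were followed across the myeloid populations of the mouse hippocampus. They are the 10 genes Tgfb1, Nrros, Itgav, Tgfbr1, Tgfbr2, Smad2, Smad3, Smad4, Smad7 and Skil, chosen by symbol from the 31053 genes listed for each library, and all 10 were found. The study sequenced the RNA of single tdTomato-positive cells sorted from both hippocampi, in 3 libraries called runs 1, 2 and 3. They form 1 group with no treated or control arm. Every animal carried 1 CreERT2 allele at the Cx3cr1 locus (Cx3cr1CreERT2/+), 1 Cre-dependent reporter allele (Rosa26tdTomato/+) and the NestinTK-eGFP/+ transgene, and received tamoxifen at 100 mg/kg on 4 days to switch the reporter on. Cx3cr1 is active in microglia and in macrophages of the brain's borders, so the reporter marks both. The 12 animals, 6 male and 6 female, are not assigned to runs and their age is not stated. The p-values therefore rest on the spread between runs, which may be technical in part. In most comparisons that spread was pooled over genes.

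TGF-beta1 is made with a latency peptide that keeps it inactive. In the brain this complex is tethered to the surface of microglia by the milieu molecule encoded by Nrros, and integrins that contain the alpha-V chain, encoded by Itgav, release the active ligand. The ligand joins receptor type 2 (Tgfbr2) to receptor type 1 (Tgfbr1), a kinase that phosphorylates the receptor Smads 2 and 3, which enter the nucleus with the common partner Smad4; Smad7 and SnoN, the product of Skil, are brakes that the pathway itself can induce. Mice in which this signal is lost in microglia are known for losing the homeostatic microglial programme, of which Tmem119, P2ry12 and Sall1 are examples.

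The promoters of Tgfbr1 and Nrros are shown because Tgfbr1 had its highest mean in reference microglia and Nrros in chemokine-gated cells, where Smad7 and Skil rose further. Skil was not matched, and Smad7 is not printed. Each is the 250 bases before a RefSeq transcript start (GRCm38.p6), printed 5′ to 3′ on the gene's strand. Capitals mark the Smad-binding core CAGAC, searched on both strands. The Tgfbr1 window is chr4:47352972-47353221 on the plus strand, and the Nrros window is chr16:32165595-32165844 on the minus strand.
Tgfbr1: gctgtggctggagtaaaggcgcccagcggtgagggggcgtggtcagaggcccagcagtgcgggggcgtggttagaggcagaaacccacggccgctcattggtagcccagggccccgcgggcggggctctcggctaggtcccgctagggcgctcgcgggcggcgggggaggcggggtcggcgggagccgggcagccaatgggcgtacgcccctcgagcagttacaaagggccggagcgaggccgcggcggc
Nrros: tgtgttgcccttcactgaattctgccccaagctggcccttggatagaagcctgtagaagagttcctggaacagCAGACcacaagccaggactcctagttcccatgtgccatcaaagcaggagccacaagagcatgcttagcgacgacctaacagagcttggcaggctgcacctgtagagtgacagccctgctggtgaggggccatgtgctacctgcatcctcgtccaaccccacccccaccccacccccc
The Tgfbr1 window held no CAGAC and the Nrros window held 1. Among the windows of 6 matched members, Tgfbr2 and a second Tgfbr1 start also held 1 each, and those of Tgfb1, Smad3 and Itgav held none. Of 32851 RefSeq windows of the same length, 42.2% held this core, so its presence is common. The palindrome GTCTAGAC (0.167% of windows) and the AP-1 motif TGANTCA (6.75%) were in none of the members' windows, and a missing match says only that these letters are not there.

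In the GENCODE M21 annotation of GRCm38 the genes span chromosome 7, 25687002 to 25705077 (Tgfb1), chromosome 4, 47353222 to 47414931 (Tgfbr1), chromosome 9, 116084293 to 116175360 (Tgfbr2) and 63646767 to 63757994 (Smad3), chromosome 3, 31095058 to 31122577 (Skil), chromosome 16, 32142785 to 32165594 (Nrros), and chromosome 2, 83724397 to 83806916 (Itgav). Smad2, Smad4 and Smad7 lie on chromosome 18. All are protein coding.

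Runs 1, 2 and 3 kept 6993, 6720 and 6078 cells with medians of 4425, 3438 and 3696 UMIs per cell, where a UMI is a counted RNA molecule. Each pair of runs shared 7 or 8 barcodes. Cells were placed in exclusive gates by marker genes, none of which is a member, and populations are called by their gate. Reference microglia, which detect at least 4 microglial markers of a list that includes P2ry12, Siglech, Fcrls, Cx3cr1 and Csf1r and enter no other gate, made up 93.9% to 96.4% of each run. Gates with at least 10 cells in every run were tested against them: border macrophage (81, 35 and 54 cells in runs 1, 2 and 3), MHC class II (19, 21 and 42), lipid disease-associated (27, 24 and 15), cycling (37, 11 and 16), interferon (77, 43 and 44), chemokine (29, 34 and 47) and Emp3, Fxyd5 and Tnfsf13b (24, 11 and 17). Levels are UMIs of a gene per 1000000 UMIs of the population in a run (CPM). Log2 changes come from edgeR's quasi-likelihood test on summed counts with the run as a block, with p adjusted over all genes tested. The test gives no standard error, so each was set to the absolute log2 change divided by the square root of its F statistic. In the 7 gates tested the spread was taken from genes of similar level, not from the gene itself. A small error or p there does not show that the runs of that gene agree. All tests use the same reference cells, so their results are not independent of each other.

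Tgfbr1 was lower than in reference microglia in 4 gates and Smad7 and Itgav in 3 each, and the chemokine gate was the 1 tested gate in which members were higher and none lower. In border macrophage-gated cells 5 of 10 members differed, 4 lower and 1 higher, where 12.4% of all genes differed (4.83% lower and 7.55% higher). In MHC class II-gated cells 3 of 10 were lower (15.6% of all genes differed, 8.41% higher and 7.18% lower), and in lipid disease-associated-gated cells 3 of 10 were lower (8.66% of all genes differed, 4.1% higher and 4.57% lower). Cycling cells had 2 of 10 members lower where 18.3% of all genes differed (9.8% higher and 8.54% lower), a share of members near the background. Chemokine-gated cells had 3 of 10 members higher, where 7.66% of all genes differed (4.36% higher and 3.3% lower). No member passed the threshold in interferon-gated cells (2.66% of all genes, 2.18% higher and 0.488% lower), in the Emp3, Fxyd5 and Tnfsf13b gate (0.443%, 0.253% higher and 0.19% lower) or between reference microglia with Y-linked and with Xist transcripts (0.648%, 0.373% higher and 0.275% lower), where edgeR gave 3, 2 and 1 members at an unadjusted p under 0.05. All 10 members passed the filter on low counts in these comparisons.

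**Figure D1:**
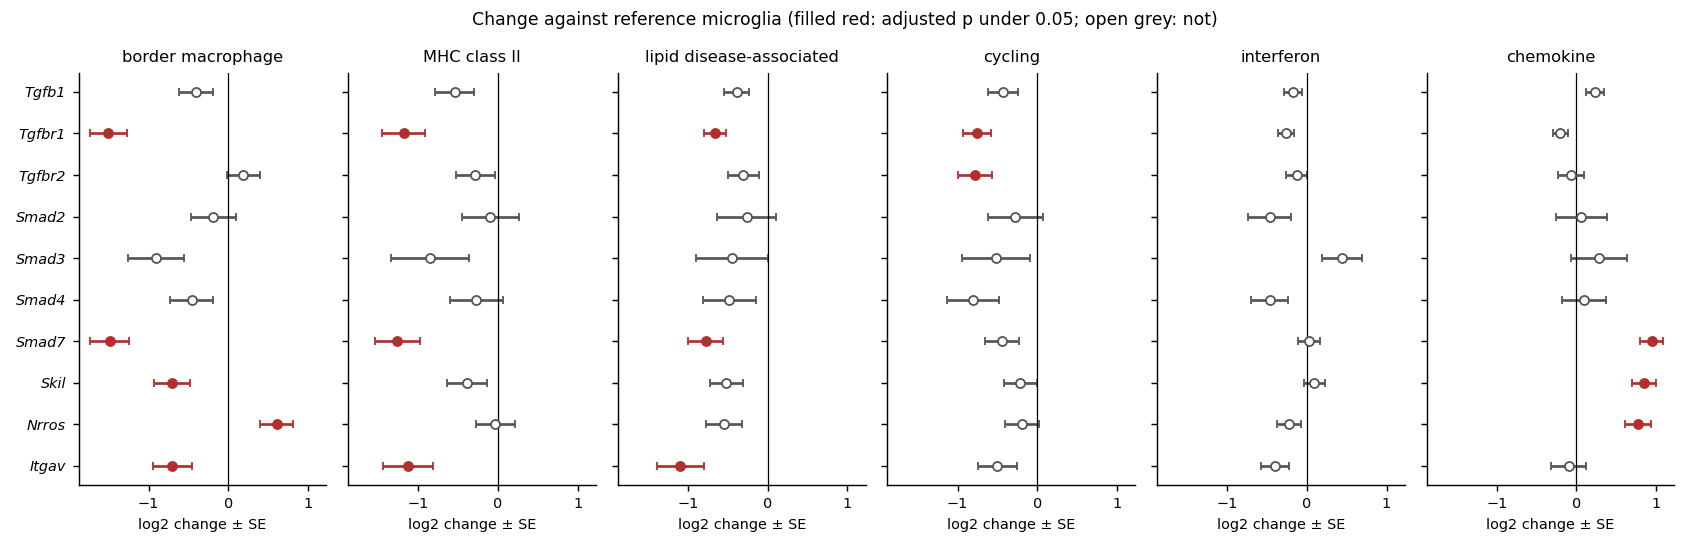
Log2 change (± SE, derived from edgeR's F statistic) of each gene in 6 gates against reference microglia, over 3 runs. Filled red points have an adjusted p under 0.05. Tgfbr1 lies at -1.51 in the border macrophage gate, and Smad7, Skil and Nrros are the filled points to the right of 0 in the chemokine gate.

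The median change of the members was -0.58 in border macrophage-gated, -0.47 in MHC class II-gated, -0.50 in lipid disease-associated-gated and -0.47 in cycling-gated cells. Over all genes tested in the same comparisons it was -0.10, -0.19, -0.17 and -0.17. In interferon-gated cells the members' median was -0.20 against -0.06 for all genes, in the Emp3, Fxyd5 and Tnfsf13b gate -0.25 against -0.20, and in chemokine-gated cells 0.16 against -0.13. The fitted change was below 0 for 8 of 10 members in the border macrophage gate, where Nrros was called higher, and for 3 of 10 in the chemokine gate.

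Of the ligand and the proteins that hold and free it, Tgfb1 itself was called in no gate against the reference. Its level in reference microglia was 445, 689 and 373 CPM in runs 1, 2 and 3. Run 2 was the highest run in 7 of the 8 populations. The 8 populations ran from 563 ± 195 CPM in chemokine-gated cells to 308 ± 141 CPM (SD, n = 3) in MHC class II-gated cells, and the ranges of every pair of neighbours in that order overlapped. Tgfb1 in border macrophage-gated cells was at 358, 377 and 272 CPM, lower than the reference of the same run in each case, with a change of -0.41 ± 0.21 (adjusted p 0.254, edgeR).

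Nrros, which anchors latent TGF-beta1 to microglia, was at 117, 207 and 184 CPM in reference microglia. Chemokine-gated cells held it at 270, 277 and 262 CPM. These 3 values lay close together and all above the reference, so the groups did not overlap. The change was 0.77 ± 0.16, or 1.71 times (adjusted p 7.66e-05, edgeR). Without run 1 it was 0.54 ± 0.20 and the call was lost (adjusted p 0.109, edgeR). Border macrophage-gated cells held Nrros at 150, 250 and 317 CPM, above the reference of the same run each time but overlapping it across runs. There the change was 0.61 ± 0.21 (adjusted p 0.0313, edgeR). That call was lost under 8 of 14 other settings, among them without run 2, and without run 3 the adjusted p was 0.586. Lipid disease-associated-gated cells had the lowest mean, 104 ± 22.8 CPM, and the difference of -0.54 ± 0.23 did not pass (adjusted p 0.137, edgeR).

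Itgav, the integrin chain that can release the ligand, was at 117, 87.4 and 127 CPM in reference microglia. Lipid disease-associated-gated cells had 52.4, 28.4 and 74.7 CPM, all below every reference value (-1.10 ± 0.29, adjusted p 0.00403, edgeR). MHC class II-gated cells had 79.4, 25.3 and 37.7 CPM, also without overlap (-1.13 ± 0.31, adjusted p 0.00362, edgeR). In border macrophage-gated cells the values of 80.9, 57.6 and 44.8 CPM were likewise below the reference (-0.70 ± 0.24, adjusted p 0.0353, edgeR). These falls rest on 23, 27 and 88 Itgav UMIs, and each lost its call under at least 2 other settings. Without run 3 the adjusted p was 0.392 in the MHC class II gate and 0.522 in the border macrophage gate, and without run 2 it was 0.103 in the lipid gate.

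**Figure D2:**
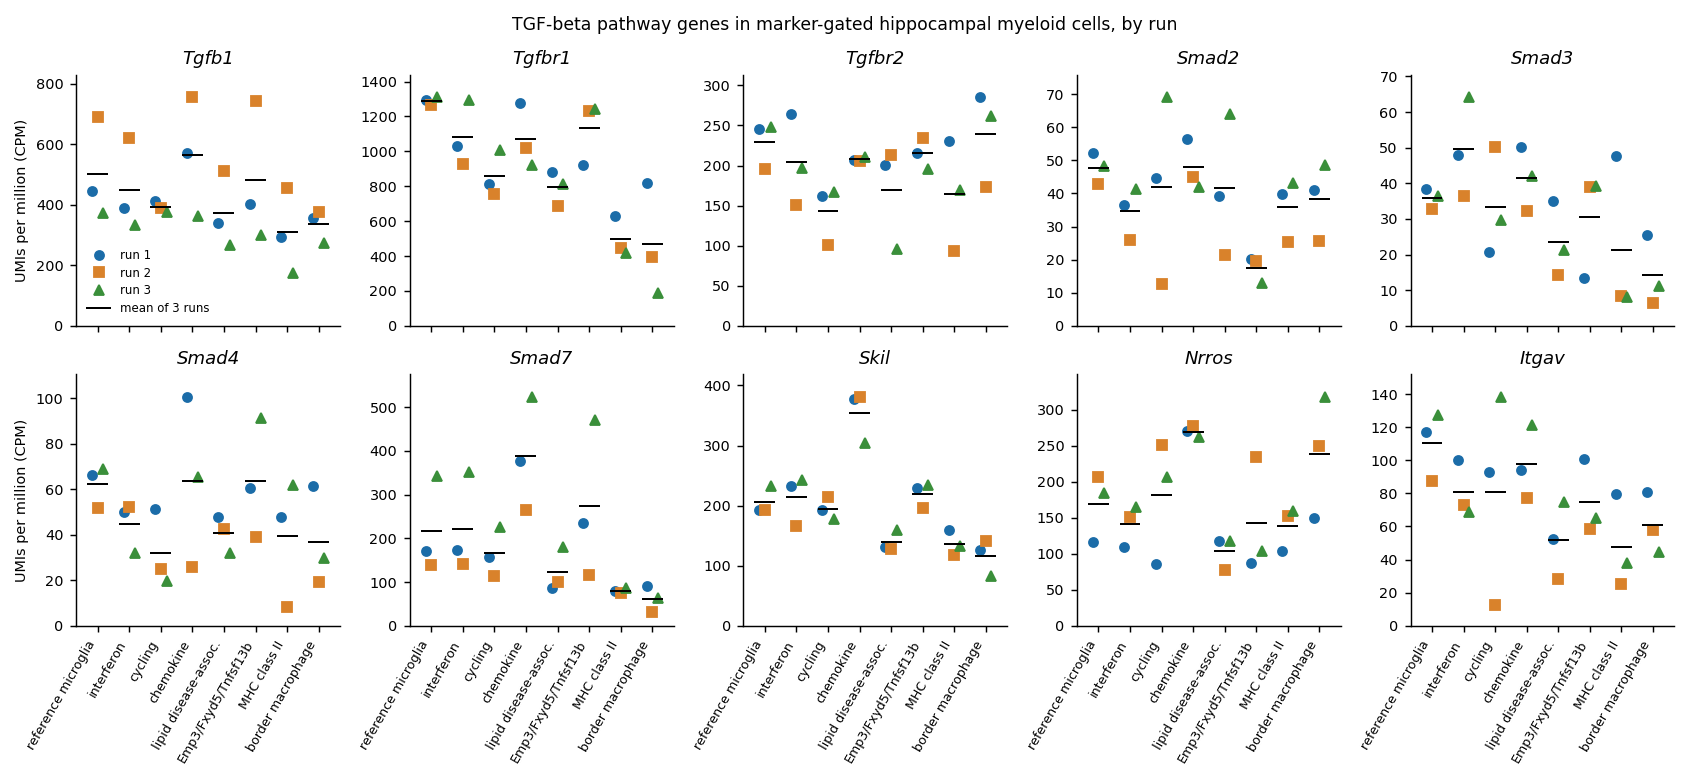
CPM of each of the 10 genes (y axes, linear from 0) in 8 gated populations; circles, squares and triangles are runs 1, 2 and 3 and bars their mean. Tgfbr1 steps down from 1289 CPM in reference microglia to 469 CPM in border macrophage-gated cells, while Skil is highest in the chemokine gate.

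Among the receptors, Tgfbr1 had the tightest reference level and the widest range between populations. Reference microglia were at 1292, 1266 and 1309 CPM, 1289 ± 21.5 (SD, n = 3). At an equal depth of 2000 UMIs per cell, 90.2% ± 0.5 of them held a Tgfbr1 UMI (97.8% without thinning). In descending order the other means were 1131 CPM in the Emp3, Fxyd5 and Tnfsf13b gate, 1083 in interferon-gated, 1073 in chemokine-gated, 857 in cycling, 794 in lipid disease-associated-gated, 497 in MHC class II-gated and 469 in border macrophage-gated cells. Neighbours in this order had overlapping runs in all but 2 places: the reference stood above the next population, and the lipid gate stood above the MHC class II gate.

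Border macrophage-gated cells held Tgfbr1 at 819, 397 and 190 CPM, each below every reference value but spread over a wide range. The fitted level was 0.352 times that of the reference (-1.51 ± 0.23, adjusted p 2.65e-09, edgeR). Within runs the log2 ratios were -0.66, -1.67 and -2.78, a range that the pooled error does not reflect. MHC class II-gated cells were at 627, 447 and 415 CPM (-1.18 ± 0.27, adjusted p 0.000175, edgeR), again without overlap. Leaving out run 3 or run 2 took this call away, with an adjusted p of 0.0643 without run 3. Lipid disease-associated-gated cells were at 882, 689 and 811 CPM (-0.66 ± 0.14, adjusted p 6.59e-05, edgeR) and cycling cells at 811, 754 and 1006 CPM (-0.76 ± 0.17, adjusted p 0.000165, edgeR). None of these values reached the reference. In a fit over all populations together, which shares 1 spread, these 2 calls had adjusted p values of 0.113 and 0.0598. Without run 2 the lipid call was also lost (adjusted p 0.0801, edgeR), and with a looser lipid gate the change was -0.28 (adjusted p 0.000496, edgeR). In chemokine-gated cells Tgfbr1 was at 1275, 1019 and 925 CPM, and the difference did not pass (-0.20 ± 0.09, adjusted p 0.215, edgeR).

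Tgfbr2, the receptor that binds the ligand first, was not called in the border macrophage gate. Reference microglia were at 245, 195 and 249 CPM and border macrophage-gated cells at 285, 173 and 261 CPM, which overlapped (0.19 ± 0.21, adjusted p 0.699, edgeR). In the cycling gate Tgfbr2 was at 161, 101 and 168 CPM, below every reference value, and it was the 1 gate where it was called (-0.78 ± 0.21, adjusted p 0.00266, edgeR). This call was kept under all 11 alternatives run, with a highest adjusted p of 0.0396. Whether the difference between the receptors itself departs from 0 was not tested.

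The signal-carrying Smads were called in no gate against the reference, and few of their UMIs were counted. Reference microglia held Smad2 at 47.8 ± 4.76, Smad3 at 35.9 ± 2.76 and Smad4 at 62.3 ± 9.24 CPM (SD, n = 3). In a small gate such levels come from a handful of molecules: lipid disease-associated-gated cells had 18 Smad2, 12 Smad3 and 20 Smad4 UMIs in all 3 runs. The lowest adjusted p was that of Smad4 in cycling cells (-0.81 ± 0.33, adjusted p 0.0689, edgeR), followed by Smad3 in border macrophage-gated cells (-0.91 ± 0.35, adjusted p 0.0742, edgeR). Smad3 was at 25.4, 6.40 and 11.2 CPM in the latter against 38.3, 32.9 and 36.5 CPM in the reference. The groups did not overlap, and the difference did not pass after adjustment.

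Smad7, the inhibitory Smad that blocks the type 1 receptor, moved in both directions. Its reference level was 171, 138 and 344 CPM, with run 3 about as high as chemokine-gated cells of the other runs. Chemokine-gated cells held 377, 264 and 523 CPM, higher than the reference in every run though the ranges overlap across runs. The change was 0.95 ± 0.14, or 1.93 times (adjusted p 3.31e-09, edgeR). Border macrophage-gated cells were at 90.6, 32.0 and 63.5 CPM, below every reference value (-1.49 ± 0.24, adjusted p 2.9e-08, edgeR). MHC class II-gated cells were also below it at 79.4, 76.0 and 86.2 CPM (-1.26 ± 0.28, adjusted p 0.000122, edgeR). Without run 3, and with a looser gate, the MHC class II call was lost. Lipid disease-associated-gated cells were at 87.4, 99.4 and 181 CPM, lower than the reference of the same run each time (-0.78 ± 0.22, adjusted p 0.00735, edgeR). That call was lost under 6 of 10 alternatives, among them without run 1 (adjusted p 0.0810) and without run 3 (adjusted p 0.116, edgeR). A looser lipid gate, chosen after the cell numbers were seen, gave -0.06 with an adjusted p of 0.791.

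Skil, whose product SnoN holds Smad complexes inactive, was higher in the same chemokine gate. Reference microglia were at 193, 192 and 232 CPM and chemokine-gated cells at 377, 380 and 303 CPM. The groups did not overlap, and the change was 0.85 ± 0.15, or 1.80 times (adjusted p 3.76e-07, edgeR). It was called under all 13 alternatives, including the fit without the run as a block (adjusted p 0.0227). Border macrophage-gated cells held Skil at 127, 141 and 82.1 CPM, below every reference value (-0.71 ± 0.22, adjusted p 0.0167, edgeR). Without run 3 this fall had an adjusted p of 0.538.

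The chemokine gate was then set directly against the lipid disease-associated gate, a comparison chosen after their opposite directions had been seen. Of the 10 members 7 passed the filter on low counts, and Smad2, Smad3 and Smad4 did not. In chemokine-gated cells 4 of the 7 were higher and none lower, where 9.56% of 2614 genes tested differed (5.59% higher and 3.98% lower). Smad7 was 3.25 times as high (1.70 ± 0.23, adjusted p 8.59e-05, edgeR), Skil 2.58 times (1.37 ± 0.23, adjusted p 0.000541, edgeR) and Nrros 2.56 times (1.36 ± 0.25, adjusted p 0.00142, edgeR). For these 3 genes the difference was positive in every run and the runs of the 2 gates did not overlap. With the looser gates the log2 differences were 0.81 for Smad7 and 0.74 for Skil (adjusted p 0.00118 and 0.00388, edgeR), and Nrros lost its call under the DESeq2 Wald test (adjusted p 0.0735). Tgfb1 differed by 0.60 ± 0.17 (adjusted p 0.0321, edgeR), which 7 of 10 alternatives did not keep. Tgfbr1 differed by 0.43 ± 0.14 (adjusted p 0.0623, edgeR).

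Early response genes moved with the chemokine gate. The 8 early genes used as a gate (such as Fos, Egr1 and Atf3) summed to 2305 to 4818 CPM in chemokine-gated cells, 188 to 1781 in lipid disease-associated-gated cells and 325 to 2306 in reference microglia, whose highest value is run 3. None of the 8 was at 0 in the chemokine gate. The median share of mitochondrial UMIs was 3.64% to 5.08% in the lipid gate, 2.50% to 3.16% in the chemokine gate and 2.09% to 2.58% in the reference. The part of either in the member differences was not tested. Without the run as a block, 1 of 10 members was called in the chemokine gate (Skil), where 264 of 11150 genes were called. Smad7 had an adjusted p of 0.128 and Nrros of 0.138 there (edgeR). In the lipid gate the same fit called 1 of 10, where 430 of 11149 genes were called.

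Because Smad7 was higher in run 3, reference and early gene-gated cells were divided by how many early genes each held after thinning to 2000 UMIs. This description was added after the run difference was seen. In run 3 Smad7 stood at 265 CPM in 828 cells with no early gene, 288 with 1, 361 with 2, 408 with 3 and 461 with 4 or more (690 cells). Skil in the same cells went from 196 to 292 CPM. Tgfbr1 in run 3 lay between 1260 and 1318 CPM, with no such order. Nrros went from 169 to 196 CPM, but not at every step, with 188 CPM at 1 early gene and 178 CPM at 2.
Runs 1 and 2 held few cells with many early genes. Run 1 Smad7 was at 167, 178, 159 and 217 CPM with 0, 1, 2 and 3 early genes, the last in 29 cells. Run 2 Smad7 was at 133, 139, 152 and 150 CPM, the last in 71 cells. Skil was at 189, 197, 193 and 271 CPM in run 1, and at 184, 196, 207 and then 146 CPM in run 2. Tgfbr1 was higher at each step in these runs, at 1272, 1307, 1331 and 1687 CPM in run 1 and 1232, 1268, 1286 and 1512 CPM in run 2, so its flat course was seen in run 3 alone. Smad7 in the cells of run 3 with no early gene was still above that in the cells of runs 1 and 2 with none. For Nrros this did not hold, with 199 CPM in such cells of run 2 against 169 CPM in run 3.

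**Figure D3:**
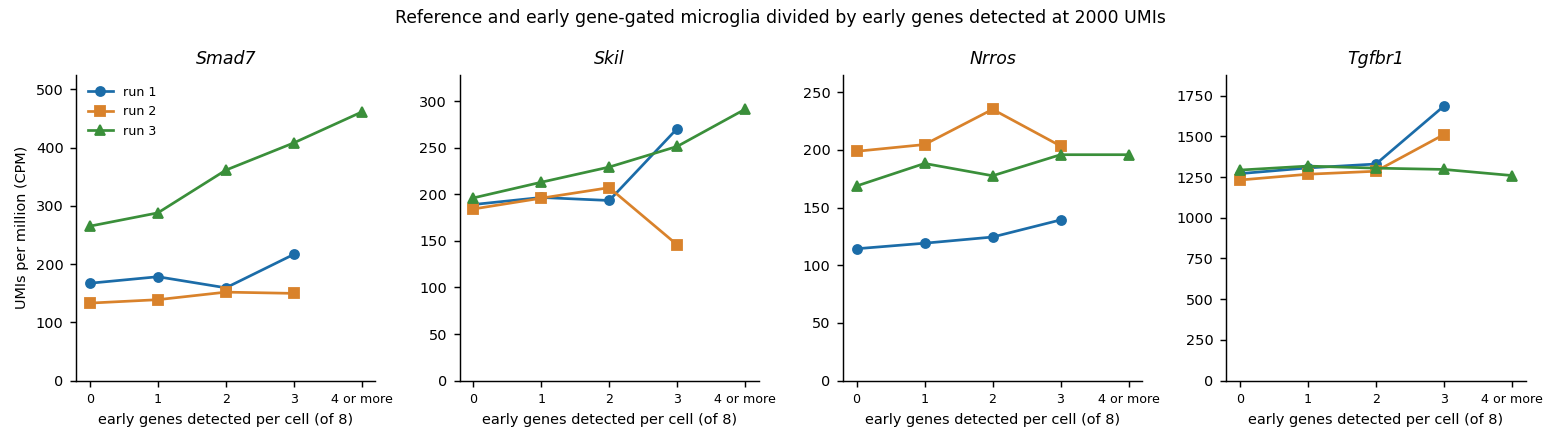
CPM of 4 members (y axes, linear from 0) in reference and early gene-gated cells, from all UMIs of the cells, 1 line per run. Cells are divided by the number of early genes held after thinning to 2000 UMIs (x axis), and points with under 20 cells are left out. Smad7 goes from 265 to 461 CPM in run 3, while Tgfbr1 of that run lies between 1260 and 1318 CPM and is higher at each step in runs 1 and 2.

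The early gene gate itself held 1, 2 and 113 cells and was not tested. In run 3 its cells had 450 CPM of Smad7, 284 of Skil, 207 of Nrros and 1085 of Tgfbr1, against 344, 232, 184 and 1309 CPM in the reference of that run. The astrocyte transcript gate, with 73, 22 and 9 cells, was not tested either. It held Tgfbr1 at 1314, 1257 and 1509 CPM and Smad7 at 182, 108 and 412 CPM.

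Border macrophages are the other resident lineage that this reporter marks, so microglial transcripts within their gate bear on the values above. The 9 markers of the gate, all detected, summed to 5323 to 9929 CPM against 3.42 to 7.02 in the reference. Its cells also held the microglial marker P2ry12 at 2303, 940 and 358 CPM, against 3806, 5012 and 3612 CPM in the reference, and Siglech at 1071, 365 and 239 CPM against 1795, 1541 and 1804 CPM. In runs 1, 2 and 3, 67, 22 and 38 gated cells held UMIs of at least 2 of P2ry12, Siglech and Fcrls. In run 1, 26 of 81 gated cells (32.1%) held both Xist and Y-linked UMIs, against 1 of 35 and 3 of 54 in runs 2 and 3. Run 1 was also the run with the highest Tgfbr1 in this gate. Without the run as a block 2 of the 5 calls, Tgfbr1 and Smad7, were kept, where 819 of 11472 genes were called.

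With the cells that hold at least 2 of P2ry12, Siglech and Fcrls left out, 14, 13 and 16 macrophage-gated cells remained. These could still hold 1 of the transcripts. This alternative was chosen after their number was seen. P2ry12, Siglech and Fcrls are also markers of the reference gate, so the filter and the reference are not independent. How far the filter itself lowers other transcripts that are high in microglia was not tested. Tgfbr1 was then at 88.7, 123 and 149 CPM, 120 ± 30.4 (SD, n = 3), and the change became -3.38 ± 0.31 (adjusted p 4.09e-26, edgeR). Run 1 no longer stood above the others. Smad7 was at 14.8, 0 and 34.4 CPM, from 4 UMIs in all (-3.49 ± 0.53, adjusted p 1.97e-09, edgeR), and Skil was at 54.7 ± 16.5 CPM (-1.98 ± 0.42, adjusted p 4.96e-05, edgeR). Tgfb1 was called in this fit, at 294 ± 137 CPM (-0.83 ± 0.26, adjusted p 0.0189, edgeR).
Nrros, Tgfbr2 and Itgav were among the members not called in this fit. Itgav, called in the whole gate, was at -1.26 ± 0.48 (adjusted p 0.0701, edgeR). Nrros was at 148, 246 and 333 CPM, nearly as in the whole gate, and its difference did not pass (0.58 ± 0.28, adjusted p 0.205, edgeR). Tgfbr2 was at 133, 123 and 264 CPM (-0.32 ± 0.29, adjusted p 0.610, edgeR). With cells that held both Xist and Y-linked UMIs removed instead, 7 members were called, where 1870 of 11306 genes tested were called. Among the 7 were Smad3 (-1.81 ± 0.49, adjusted p 0.00222, edgeR) and Smad4 (-0.82 ± 0.30, adjusted p 0.0452, edgeR).

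**Figure D4:**
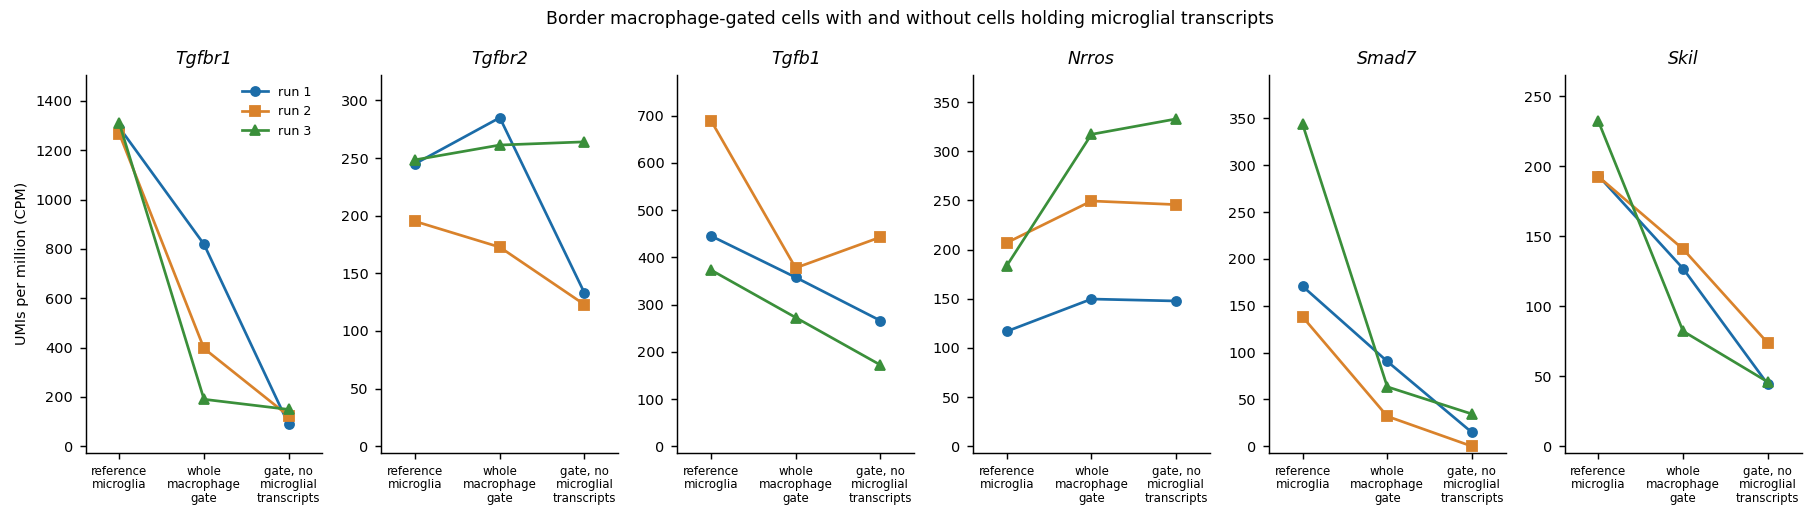
CPM of 6 members (linear y axes), 1 line per run, in reference microglia, in all border macrophage-gated cells and in a part of these. That part leaves out cells with UMIs of at least 2 of P2ry12, Siglech and Fcrls. Tgfbr1 drops from 1289 to 120 CPM on average, while Nrros stays above its reference level in each run.

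The MHC class II gate needs the same reading. It held P2ry12 at 1422, 329 and 544 CPM and Siglech at 699, 431 and 393 CPM, all below the reference values given above. Monocyte markers (Ccr2, Ly6c2, Plac8, Chil3 and Vcan) summed to 191 to 971 CPM, against 3.50 to 5.20, with Vcan at 0. The 9 border macrophage markers summed to 341 to 979 CPM against 3.42 to 7.02, with Lyve1, Cbr2, Cd209f and Folr2 at 0. The 5 dendritic markers summed to 23.8 to 151 CPM against 5.92 to 7.56, with none at 0. Whether such cells set the lower Tgfbr1, Smad7 and Itgav of this gate was not tested, and fewer expressing cells cannot be told apart from less RNA per cell in these sums.

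The wider pathway held genes called in either direction. Among receptors and coreceptors 9 of 11 genes were tested in each gate. Endoglin (Eng), a TGF-beta coreceptor, was lower in border macrophage-gated (-1.14 ± 0.27), cycling (-0.83 ± 0.29), lipid (-2.28 ± 0.39) and chemokine-gated cells (-0.98 ± 0.28). Its reference level of 92.4, 114 and 81.0 CPM compared with 34.9, 7.10 and 0 CPM in the lipid gate, from 9 UMIs. Acvr2b, an activin receptor, was lower in the same 4 gates by -1.22, -1.68, -1.67 and -1.19 on the log2 scale. In MHC class II-gated cells the type 1 receptor Acvrl1 was higher (1.70 ± 0.32) and the BMP receptor Bmpr2 lower (-0.97 ± 0.34). All of these passed an adjusted p of 0.05 in edgeR.

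The list of ligands and latency proteins had 6 or 7 of 20 genes tested. The integrin chain Itgb5, a partner of alpha-V, was lower in border macrophage-gated (-0.97 ± 0.22), MHC class II-gated (-0.93 ± 0.26) and cycling cells (-0.63 ± 0.17), from a reference mean of 1054 CPM. Itgb1 was lower in the MHC class II gate (-0.75 ± 0.25). Gdf15, a distant ligand of the family, had 16 UMIs in chemokine-gated cells (29.3 CPM) against 13 in all reference microglia (0.179 CPM) and was called higher. Bmp2 was called higher in the border macrophage gate, with 21 UMIs there and 1 in all reference microglia, too few for a fold.

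Of the 10 further brakes, all tested, Pmepa1 was the one called in most gates. It encodes a membrane protein that sequesters receptor Smads and is itself induced by TGF-beta. In reference microglia it was at 1224, 1017 and 1267 CPM. Lipid disease-associated-gated cells had 533, 582 and 523 CPM, without overlap (-1.05 ± 0.14, adjusted p 5.28e-11, edgeR). It was also lower in MHC class II-gated (-1.08 ± 0.27), border macrophage-gated (-0.83 ± 0.22), cycling (-0.57 ± 0.17) and chemokine-gated cells (-0.39 ± 0.10). Smad7 was also called lower in the MHC class II, border macrophage and lipid gates. In cycling cells Smad7 was not called (-0.44 ± 0.21, adjusted p 0.137, edgeR), and in the chemokine gate Smad7 and Skil were higher. The ubiquitin ligase Wwp1 was higher in border macrophage-gated cells at 127, 128 and 239 CPM against 30.8, 19.0 and 25.2 CPM (2.76 ± 0.22, adjusted p 1.14e-32, edgeR). Cycling cells had 3 of the 10 brakes higher, Bambi (3.09 ± 0.82), Nedd4l (1.42 ± 0.51) and Stub1 (0.63 ± 0.22), where 9.8% of all genes were higher. Bambi was low in both populations, at 23.7 CPM there against 2.15 CPM in the reference.

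Among 13 tested Smads and cofactors, at most 2 were called in a gate. The corepressor Tgif1 was higher in chemokine-gated (1.36 ± 0.28) and lipid disease-associated-gated cells (1.08 ± 0.33) and lower in cycling cells (-2.10 ± 0.61). Ski, the relative of Skil, was lower in MHC class II-gated cells (-1.28 ± 0.28), and Zeb1, a repressor known from epithelial cells, was lower in border macrophage-gated cells (-1.09 ± 0.32). In cycling cells Zfyve9, which brings Smads to the receptor, had 0 UMIs against 10.3 CPM in the reference and was called lower (adjusted p 0.0357, edgeR). At that reference level a gate of 64 cells would hold few UMIs, so no fold is given.

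Transcripts known to respond to TGF-beta in other cells were called higher wherever they were called. In chemokine-gated cells 3 of 8 tested were higher, Atf3 (5.38 ± 0.16), Id2 (3.26 ± 0.18) and Klf10 (2.25 ± 0.53). Atf3 is also 1 of the early genes. Id2 was at 320, 297 and 350 CPM there against 35.9, 27.1 and 43.5 CPM in the reference. In the lipid gate Atf3 (1.81 ± 0.42) and Id2 (1.20 ± 0.32) were higher. In the MHC class II gate 5 of 9 were higher, among them Bhlhe40, Tgfbi (2.80 ± 0.29) and Atf3 (1.62 ± 0.43). Tgfbi, which encodes a matrix protein, was the 1 of 8 called in border macrophage-gated cells, at 232, 473 and 459 CPM against 20.4, 26.5 and 18.1 CPM (4.22 ± 0.22). Cycling cells had Id1 (25.8 CPM against 0.456 CPM in the reference) and the cell cycle inhibitor Cdkn1a (4.50 ± 0.17) higher, 2 of 9 tested. Of all genes, 4.36%, 4.1%, 8.41%, 7.55% and 9.8% were higher in the chemokine, lipid, MHC class II, border macrophage and cycling gates.

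The 8 homeostatic microglial genes reported to depend on TGF-beta were lower in several gates. All 8 were lower in border macrophage-gated cells, with a median of -1.56, where 4.83% of all genes were lower. All 8 were also lower in MHC class II-gated cells, with a median of -1.96, where 7.18% of all genes were. Of the 8, 7 were lower in lipid disease-associated-gated cells (median -0.87) and 7 in chemokine-gated cells (median -0.55), and 6 in cycling cells (median -0.84). Of all genes, 4.57%, 3.3% and 8.54% were lower in the lipid, chemokine and cycling gates. Tmem119, a microglial surface protein, averaged 2287 CPM in the reference. It was at 657 CPM in the lipid gate (-1.78 ± 0.14) and at 1143 CPM in the chemokine gate (-0.91 ± 0.09). Sall1, a transcription factor of microglial identity, was lower by -0.89 ± 0.19 and -0.87 ± 0.16 in these gates. Set directly against each other, the gates differed in Tmem119 by 0.82 ± 0.15 (adjusted p 0.00145, edgeR), P2ry13 by 0.69 ± 0.18 and Gpr34 by 0.49 ± 0.12, each higher in chemokine-gated cells. In interferon-gated cells 1 of the 8 was lower, the receptor Gpr34 (-0.41 ± 0.09), where 0.488% of all genes were lower. In the Emp3, Fxyd5 and Tnfsf13b gate 2 were lower, Gpr34 (-0.76 ± 0.15) and P2ry13 (-0.74 ± 0.16), where 0.19% of all genes were.

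In interferon-gated cells no member was called. Smad7 was at 173, 141 and 353 CPM, within 0.04 of the reference of the same run on the log2 scale, and the fitted change was 0.03 ± 0.13. Skil differed by 0.09 ± 0.13 and Tgfbr2 by -0.13 ± 0.13. The smallest adjusted p of the 10 was 0.168 (edgeR), that of Tgfbr1 (-0.26 ± 0.10). In the Emp3, Fxyd5 and Tnfsf13b gate Tgfbr1 was at 922, 1230 and 1241 CPM (-0.30 ± 0.15, adjusted p 0.640, edgeR). The furthest value there was Smad2 at 20.2, 19.5 and 13.1 CPM, from 5 UMIs (-1.49 ± 0.60, adjusted p 0.407, edgeR).

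Reference microglia with Y-linked transcripts were compared with those holding Xist. The 10 members lay between -0.05 and 0.12 on the log2 scale, and none was called. The largest was Smad7, at 183, 145 and 346 CPM with Y-linked against 161, 130 and 341 CPM with Xist transcripts (0.12 ± 0.04, adjusted p 0.324, edgeR). Tgfbr1 was at 1288 against 1292 CPM on average (-0.00 ± 0.04).

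Ligand and receptor transcripts were found together in single microglia. At 2000 UMIs per cell, both Tgfb1 and Tgfbr1 were detected in 53.1% of the 6512 deep enough reference cells of run 1, with an exact 95% binomial interval from 51.8% to 54.3%. The share was 66.6% (65.4% to 67.8%) in the second run and 45.9% (44.6% to 47.2%) in the third. The order of the runs is that of the Tgfb1 level. Tgfb1 with both receptors was detected in 19.9%, 21.6% and 18.3%, and Tgfb1 with Nrros in 11.9%, 24.8% and 15.7%. Fewer than 1% of reference cells held no member (0.845%, 0.718% and 0.595%), and the median cell held 3. Intervals cover counting error only.

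Detection of single members in reference microglia at that depth was 61.2% ± 11.9 for Tgfb1, 36.5% ± 2.84 for Tgfbr2 and 32.5% ± 12.3 for Smad7 (SD, n = 3; 81.5%, 57.0% and 51.3% without thinning). Free RNA adds to such shares, and a clean comparison is lacking. T/NK-gated cells (2, 3 and 8) and choroid-gated cells (29, 30 and 3) held Tgfbr1 at 123 to 407 and 181 to 768 CPM, but they also held microglial transcripts. The 16 ungated cells had 5 Tgfbr1 UMIs and no Smad7 UMI.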

How the data were processed

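The authors deposited, for every run, unnormalized UMI counts per gene and cell barcode. Per the file headers, the authors counted with software version 3.0.2 for run 1 and 3.1.0 for runs 2 and 3, and the submitters' processing notes name Cell Ranger, Seurat 4.0 and the build mm10. The aligner settings and the annotation are not given in the sources used here. Per the labels' protocols, tissue came from PBS-perfused mice, magnetic columns took out myelin, a flow sort kept viable cells and 10x Genomics chemistry was used.

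Cells with at least 1000 UMIs, 500 genes and at most 10% mitochondrial UMIs were kept (6993, 6720 and 6078) from 7255, 6895 and 6226 barcodes. Doublets were not removed. Xist and Y-linked UMIs found in the same cell were counted instead (523 cells). Of the gene IDs, 31011 (99.9%) were found in GENCODE M21, from which coordinates count from 1. Cells took the first of 12 gates they met: T/NK, choroid, border macrophage, MHC class II, cycling, interferon, lipid disease-associated, chemokine (at least 10 UMIs of Ccl3 and Ccl4), early gene, astrocyte transcript, Emp3 with Fxyd5 and Tnfsf13b, and reference. A marker of the reference gate is not reported here. Ecrg4, Clec7a and Ccn2 were not found among the listed symbols.

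Each population's UMIs were added up within a run, and the sums were tested by edgeR 4.0.16 (glmQLFit and glmQLFTest, TMM, filterByExpr, Benjamini-Hochberg) with the run as a block, since both populations of a run come from 1 library. Deviations from the population means correlated in every run (0.191 to 0.415 for gates against the reference, 0.805 to 0.872 for the comparison by sex-linked transcripts). In 7 comparisons with the reference edgeR gave no weight to a gene's own spread and used that of genes of similar level. Fitted changes are TMM-scaled and can differ from ratios of CPM. DESeq2 1.42.0 was an alternative. The test was also run on simulated counts, with a spread set below that fitted in the border macrophage and MHC class II gates. That run does not show how the test performs at the spread of these gates. Shares were computed after thinning cells to 2000 UMIs.

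The members, gates and lists were chosen with earlier results of these data known. From each list, up to 4 genes per direction and comparison could be named, with an adjusted p under 0.05, 5 CPM or more where it was higher and 1 direction in all runs. Promoter windows come from RefSeq (GRCm38.p6).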

Additional observations from a re-analysis of the deposited data

How the results depend on the processing

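No member reversed its direction in a called result under any alternative run. Against reference microglia, members called in the border macrophage gate numbered 5, where 1420 of 11472 genes tested were called. The DESeq2 Wald test called 2 (929 of 11472 genes) and the fit without the replicate block 2 (819 of 11472). A stricter cell filter gave 3 (1200 of 11371). With a run left out 2 to 6 were called: 6 without run 1 (1593 of 11361), 3 without run 2 (846 of 11719) and 2 without run 3 (582 of 11583). The lipid gate had 3 (966 of 11149 genes). It had 1 under DESeq2 (578 of 11149), without the block (430 of 11149) and in the joint fit (700 of 4583). With a run left out it had 1 to 2 (1 without run 2, where 451 of 11320 genes were called). The cycling gate had 2 (2071 of 11291 genes), 4 with a looser gate (2241 of 11178) and 1 in the joint fit (1213 of 4583). With a run left out it had 2 to 4 (4 without run 1, where 1150 of 11259 genes were called). The MHC class II gate had 3, and 0 to 3 with a run left out, 0 being without run 3, where 591 of 11277 genes tested were called, against 1761 with all runs. The chemokine gate had 3 (854 of 11150 genes), and 1 without the replicate block (264 of 11150). Chemokine against lipid cells had 4 (250 of 2614), and 2 under DESeq2 (68 of 2614). The interferon, Emp3 and sex-linked comparisons gave 0 under every setting run.

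With all 3 runs kept, genes called over the whole table fell most without the block in the border macrophage (1420 to 819), lipid (966 to 430), chemokine (854 to 264) and sex-linked (73 to 5) comparisons, under DESeq2 in the MHC class II (1761 to 1089), cycling (2071 to 1210) and chemokine against lipid (250 to 68) comparisons, and in the joint fit for interferon (300 to 154) and Emp3 (49 to 13). A looser gate raised lipid to 1812 and Emp3 to 430, and no filter on low counts raised the sex-linked count to 140. The joint fit tested 4583 genes, where the main fits tested 11261 for interferon and 11066 for Emp3. Without the filter 17788 genes were tested in the sex-linked comparison, against 11272. Counts under these settings are thus not shares of the same number of genes. DESeq2 size factors moved the median of all genes in the Emp3 gate from -0.20 to -0.08, and its count to 99. The cause of these shifts was not tested. With a run left out the lowest counts were 582 for border macrophage, 451 for lipid, 462 for chemokine, 1150 for cycling, 180 for interferon, 18 for Emp3 and 38 for the sex-linked comparison (without run 3), which gave 144 without run 1. Of the values of single members under alternatives, 925 kept their side of the threshold, and 47 lost a call and 17 gained one. The 925 kept their direction too or, where not called, changed sign by less than 1 standard error. The other 7, not called in either fit, changed sign by at least 1 standard error. Tgfbr2 in the border macrophage gate was among them, at 0.19 and, under the filter on microglial transcripts, -0.32. Gates with under 10 cells in a run after a stricter cell filter, a stricter gate or a band of 2000 to 6000 UMIs were not run: the lipid gate and its comparison with the chemokine gate for all 3 settings, cycling for the filter and the band, MHC class II for the band, and Emp3 for the gate and the band. The number of cells in the small gates limits the precision of their values.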

Other observations

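For each member the genes with the most similar pattern were ranked over 12 points, 4 populations (border macrophage, interferon, chemokine and reference) in 3 runs, among 6133 genes with a mean of at least 20 CPM. Values were log2 of CPM plus 10, centred per run, and populations of a run share a library. Tgfbr1 was followed most closely by Cttnbp2nl, Laptm5 and Ecscr (Spearman rho 0.979 each), of which Laptm5 encodes a lysosomal membrane protein of blood cells. Smad7 was followed by Zzz3 and Evi2a (0.986 each) and Picalm (0.979), which encodes an endocytic adaptor. Skil was nearest to Cd9 (0.965), a tetraspanin, Cacna1a (0.958) and the early gene Ier5 (0.951). Nrros was nearest to C5ar1 and Hivep2 (0.972 each), the first of them the complement C5a receptor, and to Eif1 (0.965). Itgav was nearest to Irf5 (0.965), an interferon regulatory factor, Zmpste24 (0.951) and Ube2h (0.944). With so many genes and so few points, values this high are a description only.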
